A study of Arabidopsis thaliana with 2 samples.

Results

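The genes described here are 59 nuclear genes of Arabidopsis thaliana that encode parts of the photosynthetic machinery, chosen by gene identifier from 8 complexes or pathways. They encode the antenna proteins of photosystem II (LHCB) and photosystem I (LHCA), subunits of both photosystems, carriers of photosynthetic electron transport, the small subunit of Rubisco with its activase, and Calvin cycle enzymes. Of the 59 genes, 14 were in the deposited table of 6791 genes, and the other 45 were not analysed here because the table holds no values for them. All 14 had a lower value in ago1-27 than in wild type. RNA was sequenced from wild-type plants and from ago1-27 plants, which carry a partial loss-of-function allele of ARGONAUTE1 (AGO1), the main effector of plant microRNAs. Both groups were grown in soil at 20 °C in long days (16 h light, 8 h dark), and the tissue was labelled as flower buds. The few flower marker genes in the table could not settle that label. The labels used here give no plant age and no accession. Each genotype was described as 3 replicates, but the table gives 1 RPKM value (reads per kilobase, corrected for library size) per genotype, so no difference below has an SD, a replicate check or a p-value.

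In the thylakoid membrane of the chloroplast, light is absorbed by chlorophyll bound to antenna proteins and passed to the reaction centres of photosystem II and photosystem I. Photosystem II takes electrons from water, and they pass through the cytochrome b6f complex and plastocyanin to photosystem I, then to ferredoxin and NADP. The reaction centre cores are encoded in the chloroplast, whereas the antenna proteins, many small subunits, the Rubisco small subunit and the Calvin cycle enzymes are encoded in the nucleus. The nuclear genes are typically strongly expressed in green leaves and green floral parts and respond to light, the circadian clock and the state of the chloroplast.

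Only genes that differed between the genotypes were listed in the deposited table. Of its 6791 rows, 1 differed by under 1.5-fold, and the smallest difference among the other lower rows was 1.502-fold. A photosynthesis gene with a smaller difference could therefore not appear, and a gene outside the table is not shown to be unchanged. The 59 photosynthesis genes were listed about as often as other genes. Their share in the table was 23.7%, and 23.8% of all 27444 annotated nuclear protein-coding genes were in it. The share listed with a lower value was 7.39% among all protein-coding genes and 23.7% among the photosynthesis genes.

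Of all rows of the table, 30.6% had a lower value in ago1-27, against 14 of 14 photosynthesis genes. Lower values were more common among strongly expressed rows, at 46.1% of the 573 rows with a mean RPKM of at least 50 and 52.4% of the 246 rows with a mean of at least 100. The ratio of wild type to ago1-27 over the 14 genes ran from 1.51-fold to 3.26-fold, with a median of 1.75-fold. A gene counted as past the threshold when log2(RPKM + 1) differed by 1 or more and RPKM reached 1 in at least 1 genotype. By this rule 6 of the 14 genes were lower (42.9%), against 10.5% of the 6606 rows compared and 16.9% of the rows with a mean RPKM of at least 50. Among the rows that were lower at all, 34.6% passed. With the median ratio of the table set to 1, 3396 rows were lower in place of 2080, 1970 rows were lower past the threshold in place of 694, and all 14 photosynthesis genes were among them. The median difference of the 14 genes was -0.77 in log2(RPKM + 1), close to the median of all lower rows at -0.81, while the median of the whole table was 0.62 in the other direction.

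**Figure D1:**
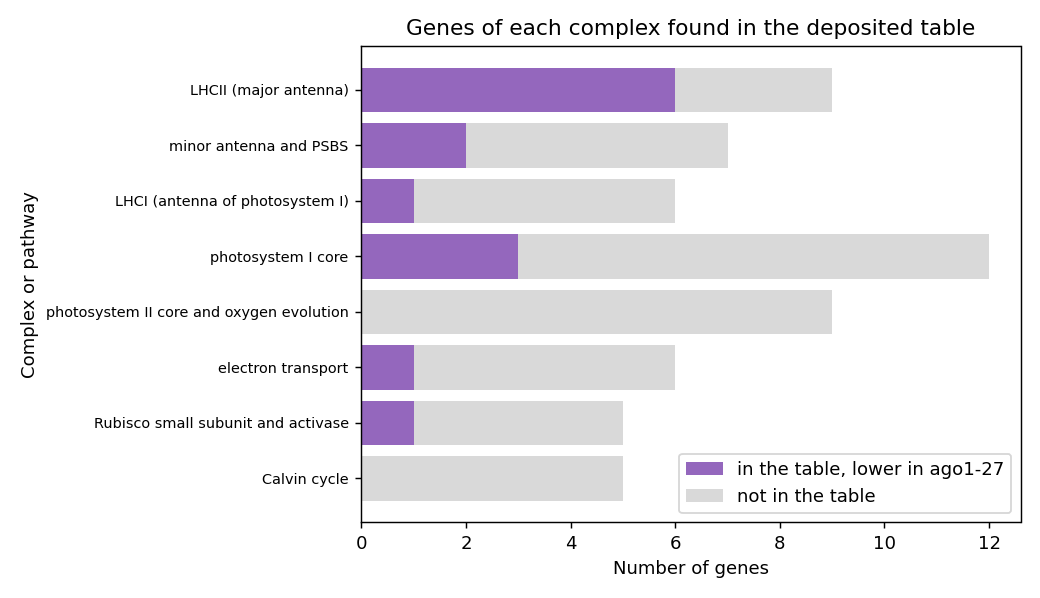
Number of genes listed for each complex or pathway, split into those in the deposited table, all lower in ago1-27, and those not in it. The major antenna LHCII has 6 of its 9 genes in the table, whereas photosystem II core and the Calvin cycle have none. Of all annotated nuclear protein-coding genes, 23.8% were in the table.

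The complexes were represented unequally, and 23.8% of all annotated nuclear protein-coding genes were in the table. LHCII stood above that share, at 66.7%, and the other classes ran from 0% to 28.6%. With 5 to 12 genes per class, these shares rest on few genes. The major antenna of photosystem II, LHCII, had 6 of its 9 genes in the table. The minor antenna genes with PSBS had 2 of 7, the antenna of photosystem I 1 of 6, and the photosystem I core 3 of 12. Electron transport had 1 of 6, and Rubisco small subunits with the activase 1 of 5. None of the 9 genes of the photosystem II core and oxygen evolution and none of the 5 Calvin cycle genes was in the table. Of the 6 genes past the threshold, 5 were LHCII genes and the other was PSAD2 of photosystem I. For comparison, 34.6% of all lower rows with RPKM of at least 1 passed. Genes of a complex are not replicates of a condition, so differences between complexes are described and were not tested.

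The LHCII trimer is built from the products of several near-identical LHCB1 and LHCB2 genes together with LHCB3. Reads of 50 bases can be common to such copies. The first 90 coding bases of 3 LHCB1 genes on chromosome 1 are shown because they let the copies be compared base by base. Capitals mark the 9 positions at which the 3 genes are not all alike. The sequences are from RefSeq, build TAIR10.1, at chr1:10475803-10475892 (minus strand), chr1:10473157-10473246 (minus strand) and chr1:10478071-10478160 (plus strand).
LHCB1.1: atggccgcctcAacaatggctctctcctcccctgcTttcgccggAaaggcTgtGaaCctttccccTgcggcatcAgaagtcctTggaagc
LHCB1.2: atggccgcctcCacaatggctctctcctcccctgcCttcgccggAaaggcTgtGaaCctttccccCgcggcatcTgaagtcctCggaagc
LHCB1.3: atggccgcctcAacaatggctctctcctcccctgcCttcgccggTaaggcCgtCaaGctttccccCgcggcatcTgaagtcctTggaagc

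The matching bases of the 3 LHCB2 genes are shown because all 3 were in the table and past the threshold. Capitals mark the 25 positions at which they are not all alike. They lie at chr2:1824242-1824331 (minus strand), chr2:1800240-1800329 (minus strand) and chr3:10256002-10256091 (plus strand) in TAIR10.1.
LHCB2.1: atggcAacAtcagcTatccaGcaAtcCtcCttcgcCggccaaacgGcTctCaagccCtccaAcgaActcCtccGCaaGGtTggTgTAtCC
LHCB2.2: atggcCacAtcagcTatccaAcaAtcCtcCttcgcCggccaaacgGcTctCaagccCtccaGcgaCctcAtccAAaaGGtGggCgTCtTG
LHCB2.3: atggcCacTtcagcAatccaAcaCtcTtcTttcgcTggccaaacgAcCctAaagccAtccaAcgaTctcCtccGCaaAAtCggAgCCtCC

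Over the whole coding sequence LHCB2.1 and LHCB2.2 were identical at 96.6% of positions, and LHCB2.3 matched them at 85.5% and 84.4%. LHCB1.1 matched LHCB1.2 at 95.6%, LHCB1.3 at 96.1% and LHCB1.5 at 89.6%. Of all 50-base windows of the main transcript, 71.8% for LHCB2.2 and 77.3% for LHCB2.1 occurred in no gene elsewhere, and every shared window was shared between these 2 genes. For LHCB1.1 the share was 79.5%, and for LHCB1.5 it was 82.7%. Every window of LHCB2.3 and of the other 9 photosynthesis genes in the table was unique in this sense. How the authors treated reads that map to several places is not stated in these sources.

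LHCB2.1 (AT2G05100; chromosome 2, 1822990-1824480) had the largest difference of the 14 genes. It was at 49.4 RPKM in wild type and 15.1 RPKM in ago1-27, which is 3.26-fold lower. The 95% interval for counting error at the depth of 1 average library was 2.82 to 3.76. LHCB2.2 (AT2G05070; chromosome 2, 1799234-1800472), its close copy nearby, was at 21.3 RPKM in wild type and 6.90 RPKM in ago1-27, 3.09-fold lower (2.44 to 3.95). LHCB2.3 (AT3G27690; chromosome 3, 10255906-10257489), the gene without shared windows, was at 43.7 RPKM in wild type and 17.8 RPKM in ago1-27. That is 2.46-fold lower (2.12 to 2.87), so the LHCB2 gene whose reads can be told from those of its copies was also past the threshold. However, LHCB2.3 overlaps a gene on the other strand by 595 bases. The libraries did not keep strand, so reads of that gene cannot be told from its own there. LHCB2.2 made up 30.1% of the summed RPKM of LHCB2.1 and LHCB2.2 in wild type and 31.3% in ago1-27.

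The LHCB1 genes in the table differed from each other in level and in ratio. LHCB1.1 (AT1G29920; chromosome 1, 10474656-10475969) was at 74.5 RPKM in wild type and 25.3 RPKM in ago1-27, 2.94-fold lower (2.62 to 3.302). LHCB1.5 (AT2G34420; chromosome 2, 14522524-14523568) stood at 395 RPKM in wild type and 243 RPKM in ago1-27. It was the most abundant LHCII gene of the table and the least different of the 6, at 1.63-fold lower (1.56 to 1.705), short of the threshold. LHCB1.1 made up 15.9% of the summed RPKM of these 2 genes in wild type and 9.45% in ago1-27. The remaining LHCB1 genes, LHCB1.2, LHCB1.3 and LHCB1.4, were not in the table. LHCB3 (AT5G54270; chromosome 5, 22038165-22039568), a component of LHCII trimers, was at 154 RPKM in wild type and 70.4 RPKM in ago1-27. It was 2.19-fold lower (2.03 to 2.36) and past the threshold.

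**Figure D2:**
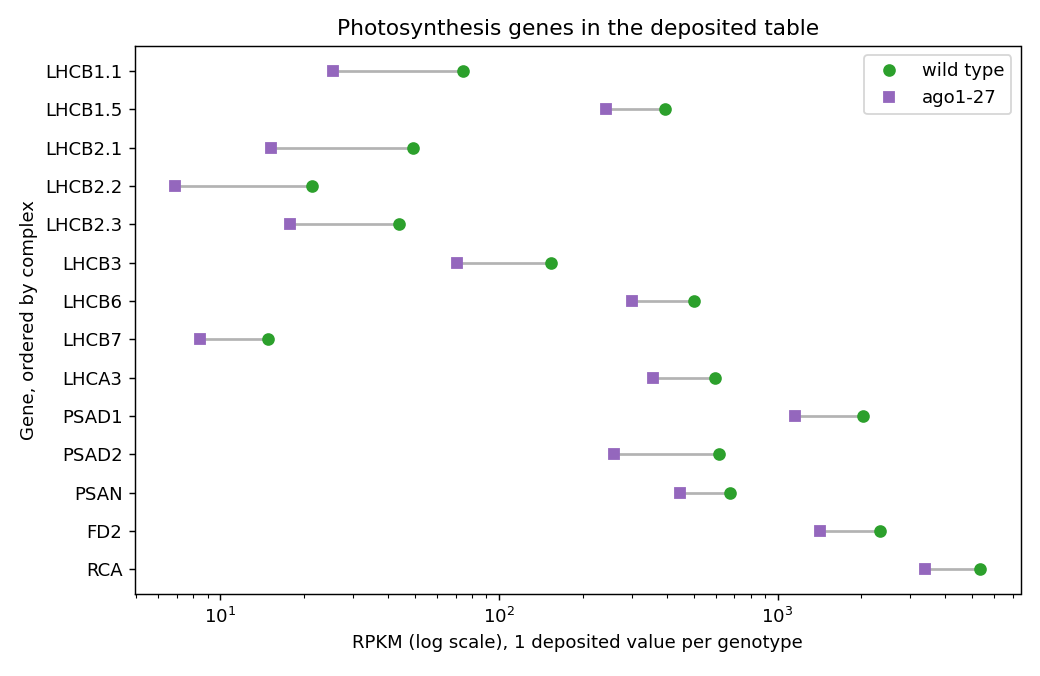
Deposited RPKM of the 14 genes in wild type (circles) and ago1-27 (squares) on a log scale, 1 value per genotype, with genes ordered by complex. Every square lies left of its circle; levels in wild type run from 14.9 RPKM for LHCB7 to 5341 RPKM for RCA.

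Because the abundant LHCB1.5 was the least different of the 6, their sum was less different than their median gene. The 6 LHCII genes had a median of 2.70-fold lower, but their summed RPKM went from 738 in wild type to 378 in ago1-27, 1.95-fold lower. The sum leaves out LHCB1.2, LHCB1.3 and LHCB1.4, so it does not describe the whole class. Its largest part, LHCB1.5, shares windows with a copy and overlaps genes on the other strand. LHCII genes past the threshold had wild-type levels between 21.3 and 154 RPKM.

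The minor antenna proteins connect the trimers to the photosystem II core, and PSBS senses acidification of the thylakoid lumen and switches on heat dissipation. LHCB6 (AT1G15820; chromosome 1, 5446462-5447880) was at 500 RPKM in wild type and 300.1 RPKM in ago1-27, 1.67-fold lower (1.61 to 1.73). LHCB7 (AT1G76570; chromosome 1, 28728998-28730851), a rare relative of the antenna proteins, was at 14.9 RPKM in wild type and 8.49 RPKM in ago1-27. It was 1.75-fold lower (1.4002 to 2.21), and the values amount to about 214 and 123 reads in 1 average library. Neither passed the threshold. LHCB4.1, LHCB4.2, LHCB4.3, LHCB5 and PSBS were not in the table.

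The antenna of photosystem I was represented by LHCA3 (AT1G61520; chromosome 1, 22699715-22701412). LHCA3 was at 598 RPKM in wild type and 358 RPKM in ago1-27, 1.67-fold lower (1.62 to 1.73). Its ratio equalled that of LHCB6 within counting error. LHCA1, LHCA2, LHCA4, LHCA5 and LHCA6 were not in the table.

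In the photosystem I core, PSAD binds ferredoxin on the stromal side and is encoded by 2 genes, and PSAN lies on the lumenal side, where plastocyanin docks. PSAD1 (AT4G02770; chromosome 4, 1229031-1230164) was at 2022 RPKM in wild type and 1159.8 RPKM in ago1-27, 1.74-fold lower (1.71 to 1.78). PSAD2 (AT1G03130; chromosome 1, 753307-754262) was at 616 RPKM in wild type and 259 RPKM in ago1-27. PSAD2 was 2.38-fold lower (2.28 to 2.49) and past the threshold, whereas PSAD1 was not. The intervals of the pair did not overlap, but they cover counting error only and leave out variation between plants. PSAD2 made up 23.3% of the summed RPKM of the pair in wild type and 18.2% in ago1-27. The coding sequences of the pair were identical at 86.3% of aligned positions and shared no 50-base window. PSAN (AT5G64040; chromosome 5, 25628521-25629708) was at 676 RPKM in wild type and 446 RPKM in ago1-27. At 1.51-fold lower (1.46 to 1.57) it had the smallest difference of the 14 genes, just inside the limit of the table. The other 9 core genes, PSAE1, PSAE2, PSAF, PSAG, PSAH1, PSAH2, PSAK, PSAL and PSAO, were not in the table.

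The soluble carrier FD2 (AT1G60950; chromosome 1, 22444307-22445291), the main leaf ferredoxin, accepts electrons from photosystem I. FD2 had the third highest wild-type value of the whole table, at 2335 RPKM against 1419 RPKM in ago1-27, 1.65-fold lower (1.61 to 1.68). The Rieske protein gene PETC, the plastocyanin genes PETE1 and PETE2 and the ferredoxin-NADP reductase genes FNR1 and FNR2 were not in the table.

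RCA (AT2G39730; chromosome 2, 16570746-16573692) encodes Rubisco activase, which frees the carbon-fixing enzyme from inhibitory sugar phosphates. RCA was at 5341 RPKM in wild type and 3389.9 RPKM in ago1-27, 1.58-fold lower (1.56 to 1.59). From its transcript length, RCA took up 1.06% of all mapped reads in wild type and 0.670% in ago1-27. The Rubisco small subunit genes RBCS1A, RBCS1B, RBCS2B and RBCS3B were not in the table, nor were the Calvin cycle genes GAPA1, GAPB, PRK, SBPASE and FBPASE. The genes of the oxygen-evolving complex and small subunits of photosystem II, PSBO1, PSBO2, PSBP1, PSBQ1, PSBQ2, PSBR, PSBW, PSBX and PSBY, were not in it either. Together the 14 genes took up 1.87% of mapped reads in wild type and 1.14% in ago1-27.

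**Figure D3:**
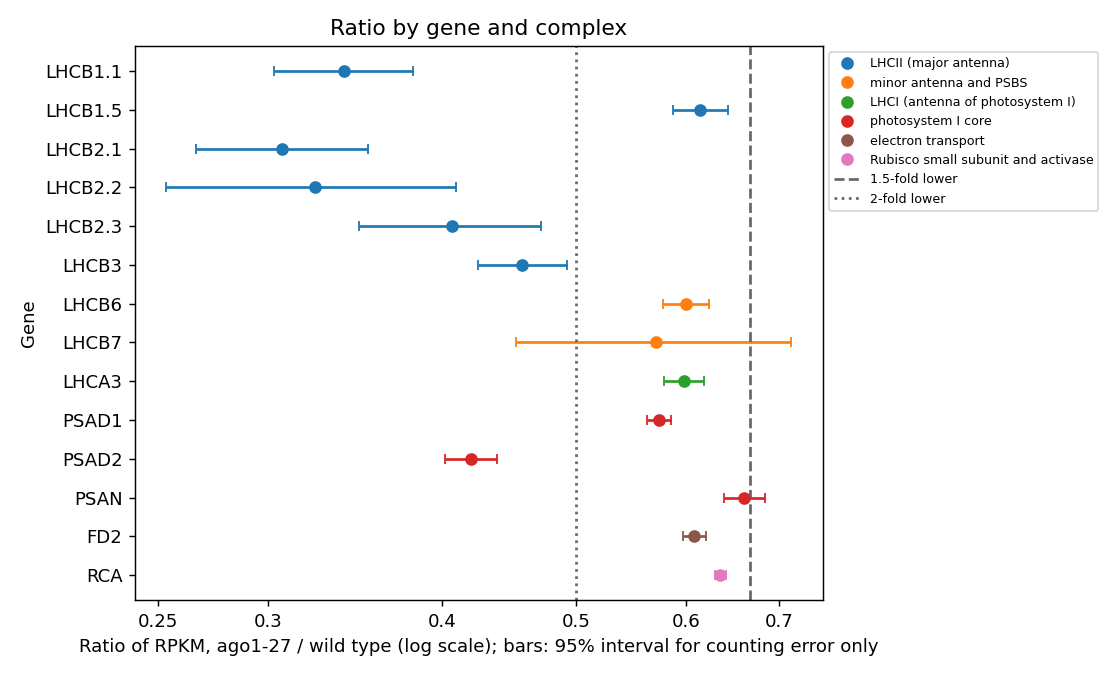
Ratio of RPKM in ago1-27 to wild type for the 14 genes on a log scale, coloured by complex, with 95% intervals for counting error only; lines mark 1.5-fold and 2-fold lower. LHCB1.1, the 3 LHCB2 genes, LHCB3 and PSAD2 lie left of the 2-fold line, and the other 8 lie between the lines, with PSAN next to the 1.5-fold line.

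Split by the threshold, the 14 ratios formed a wide and a narrow range across the complexes. The lower edge of the narrow range lies at the 1.5-fold limit of the table. The 6 genes past the threshold were 2.19-fold to 3.26-fold lower and the 8 others were 1.51-fold to 1.75-fold lower. The narrow range held genes of all 6 complexes represented. Genes of that range included the 2 most abundant, RCA and FD2, but also LHCB7, which had the lowest wild-type level of the 14. The 9 antenna genes in the table had a median of 2.19-fold lower and the 5 others 1.65-fold lower. This was not a trait of all antenna genes, since LHCB1.5, LHCB6, LHCB7 and LHCA3 lay in the narrow range. PSAD2, which is no antenna gene, was 2.38-fold lower. Both medians leave out the genes that were not in the table.

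**Figure D4:**
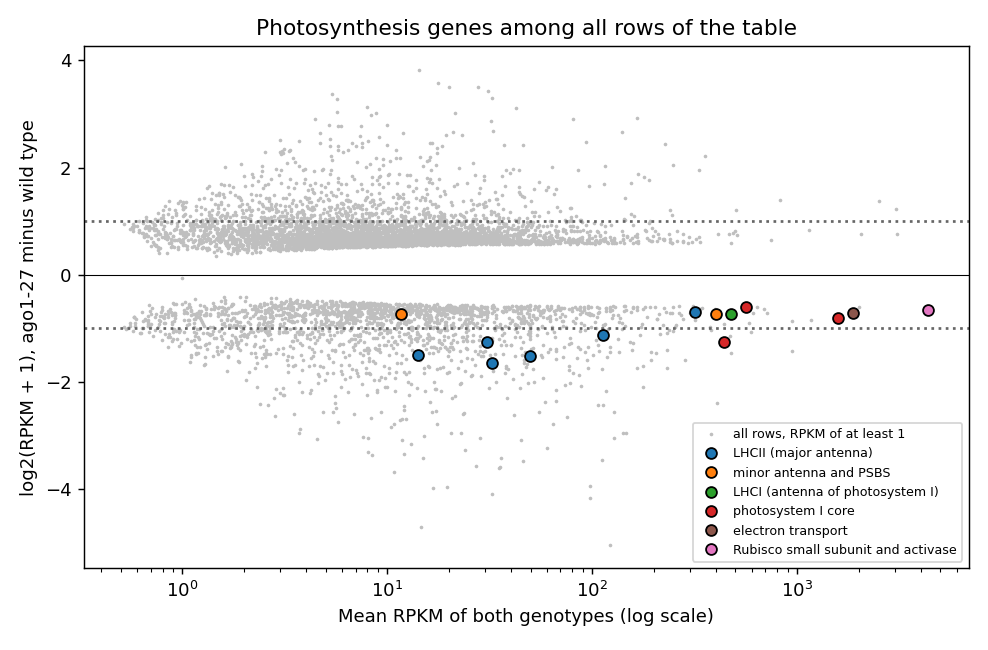
Difference between ago1-27 and wild type in log2(RPKM + 1) against mean RPKM (log scale) for all rows with RPKM of at least 1 (grey) and the 14 photosynthesis genes (coloured by complex); dotted lines mark a difference of 1 in either direction. The empty band around 0 is the selection of the table, and all coloured points lie below 0.

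Libraries did not keep strand, so reads of overlapping genes on opposite strands cannot be told apart. In TAIR10.1, 6 of the 14 genes overlap at least 1 gene on the other strand, namely LHCB1.5, LHCB2.3, LHCB3, LHCB6, PSAN and RCA. The overlaps sum to 1144 bases for LHCB1.5, 595 for LHCB2.3, 461 for LHCB6, 186 for LHCB3, 39 for PSAN and 3 for RCA. Of the 8 genes on the other strand, 2 were in the table. The myosin gene AT5G54280, opposite LHCB3, was at 13.1 RPKM in wild type and 8.21 RPKM in ago1-27, well below LHCB3. AT2G39725, opposite RCA, was at 1.69 RPKM and 4.73 RPKM. All 8 genes without such an overlap were lower and 4 of them passed the threshold. Of the 10 genes that share no window with a copy, all were lower and 3 passed. No LHCII gene of the table was free of both limits. LHCB1.1, LHCB2.1 and LHCB2.2 share windows, LHCB2.3 and LHCB3 have an overlap, and LHCB1.5 has both. Free of both were LHCB7, LHCA3, PSAD1, PSAD2 and FD2, of which only PSAD2 passed.

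Other genes around photosynthesis were taken from 6 lists written from general knowledge, with 81 genes. The lists were chosen with earlier results of these data known, so the counts below are no independent check. Of these, 21 were in the table, 18 lower and 3 higher in ago1-27. Among all rows 30.6% were lower, and 46.1% of those with a mean RPKM of at least 50. Past the threshold were 5 lower genes and no higher one, against 10.5% of the rows compared for lower and 11.3% for higher. Among all rows that were lower, 34.6% passed, against 5 of the 18 here. All 5 listed genes of chlorophyll synthesis in the table, of 17, were lower. CAO, which makes chlorophyll b, the pigment of the antenna, was at 29.3 RPKM in wild type and 11.5 RPKM in ago1-27, 2.55-fold lower (2.22 to 2.94). HEMA1, a glutamyl-tRNA reductase at the entry of the pathway, was 1.90-fold lower (1.8003 to 1.998). CHLH, a subunit of magnesium chelatase, was 1.79-fold lower (1.74 to 1.83), and its activator GUN4 was 1.76-fold lower (1.66 to 1.88).

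Of the 15 listed regulators of photosynthesis genes, 8 were in the table, 5 lower and 3 higher. The 3 higher genes were GLK1, GNC and CGA1, transcription factors that promote chloroplast development and chlorophyll accumulation. GLK1 was at 48.6 RPKM in wild type and 84.9 RPKM in ago1-27, a ratio of 1.75 (1.62 to 1.89). GNC was at 27.6 and 49.5 RPKM, and CGA1 at 12.1 and 20.4 RPKM, with ratios of 1.79 and 1.69. With the table rescaled by its median ratio these 3 ratios were 1.08, 1.103 and 1.04, and after quantile normalization they were 1.68, 1.58 and 1.35. The largest differences in the list were lower values. SIG5, a sigma factor that guides the chloroplast RNA polymerase, was at 14.5 RPKM in wild type and 5.19 RPKM in ago1-27, 2.79-fold lower (2.27 to 3.42). HYH, a close relative of the light-signalling factor HY5, was 2.15-fold lower, the phytochrome-interacting factor PIF3 2.08-fold and the sigma factor SIG1 1.83-fold.

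The remaining lists had few genes in the table, all lower. In photoprotection and thylakoid organisation there were 3 of 14. ELIP2, an early light-induced protein, was at 20.7 RPKM in wild type and 2.33 RPKM in ago1-27, 8.90-fold lower (5.94 to 14.2). ZEP, which converts zeaxanthin to violaxanthin, was 1.76-fold lower, and PGR5, a protein of cyclic electron flow, 1.55-fold. In photorespiration there were 2 of 13, with the peroxisomal catalase CAT2 at 1380.05 RPKM in wild type and 515 RPKM in ago1-27, 2.68-fold lower, and the glycine decarboxylase subunit GLDP1 1.79-fold lower. Of 12 other Calvin cycle genes, GAPA2 was 1.56-fold lower and the regulator CP12-3 1.67-fold lower, the latter from values that match whole reads of a single library in each genotype. Of 10 other photosynthesis subunits, the ferredoxin FD1 was in the table, at 760.3 RPKM in wild type and 406 RPKM in ago1-27, 1.87-fold lower.

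**Figure D5:**
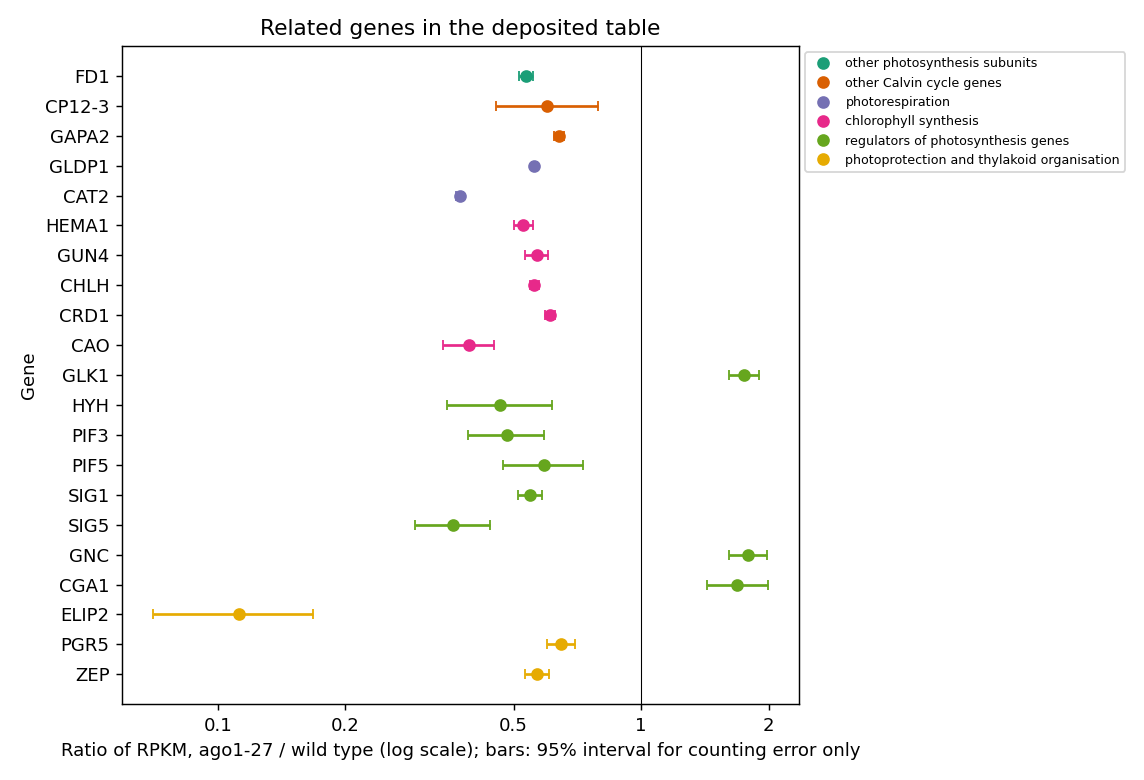
Ratio of RPKM in ago1-27 to wild type on a log scale for the 21 related genes in the table, coloured by list, with 95% intervals for counting error only. The points of GLK1, GNC and CGA1 lie right of 1 and the other 18 left of it, ELIP2 farthest at 0.112.

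Flower and pollen markers were read beside the tissue label, but few were in the table and they could not settle it. The floral meristem gene LFY was at 0.151 RPKM in wild type and 1.17 RPKM in ago1-27, and AP1, a gene of young flowers, at 0.0779 and 0.733 RPKM. SEP4, an organ identity factor, was at 12.5 and 6.22 RPKM. AP3, PI, AG, SEP1, SEP2 and SEP3 were not in the table. Of 7 pollen genes, ANX1 was at 1.43 and 2.33 RPKM, AGP6 at 0.377 and 1.49 RPKM, and STP9 at 0.917 and 0.167 RPKM. In wild type AP1 and LFY, whose values amount to about 1 and 2 reads in 1 average library, lay below all 14 photosynthesis genes. Thus AP1 and LFY did not bear out the flower-bud label in wild type, although SEP4 was at 12.5 RPKM. That value lay near the lowest of the photosynthesis genes, LHCB7 at 14.9 RPKM, and RCA was the highest of all rows. The values of LFY, ANX1 and AGP6 match whole reads of a single library in each genotype. The part of a different make-up of tissue in the lower photosynthesis values was not tested. In a bulk sample, fewer green cells and less of these transcripts per cell cannot be told apart. AGO1 itself was at 53.1 RPKM in wild type and 174.5 RPKM in ago1-27. Because ago1-27 is not a deletion, this level is no check of the genotype labels.

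The 250 bases before the annotated start of the main transcript were searched on both strands for letters known from light-regulated plant promoters. The CCAAT box (CCAAT) was in 12 of 14 promoters, in 29 of the 45 promoters of photosynthesis genes outside the table and in 46.0% of all 27443 promoters of that length. The I-box (GATAAG) was in 4 of 14, in 13 of 45 and in 12.4% of all. The G-box (CACGTG) was in 3 of 14, in 9 of 45 and in 6.57% of all. A binding site of the clock factor CCA1 (AAAAATCT) was in 2 of 14, in 3 of 45 and in 6.65% of all. No match in the promoters shown overlaps another. A match describes the letters and is not a site shown to be bound.

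Promoters of 4 LHCII genes past the threshold and of the PSAD pair are shown so that copies within the LHCB2 family and within the PSAD pair can be compared. Each is given 5′ to 3′ towards the start, with the motif matches in capitals. They are from TAIR10.1, in the order listed, at chr2:1824481-1824730 (minus strand), chr2:1800473-1800722 (minus strand), chr3:10255691-10255940 (plus strand), chr1:10475970-10476219 (minus strand), chr1:754263-754512 (minus strand) and chr4:1230165-1230414 (minus strand).
LHCB2.1: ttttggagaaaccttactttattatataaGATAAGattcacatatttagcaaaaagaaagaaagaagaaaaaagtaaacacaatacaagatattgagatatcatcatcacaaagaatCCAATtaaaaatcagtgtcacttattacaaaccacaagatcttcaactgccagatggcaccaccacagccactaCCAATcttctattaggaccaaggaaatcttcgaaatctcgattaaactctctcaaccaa
LHCB2.2: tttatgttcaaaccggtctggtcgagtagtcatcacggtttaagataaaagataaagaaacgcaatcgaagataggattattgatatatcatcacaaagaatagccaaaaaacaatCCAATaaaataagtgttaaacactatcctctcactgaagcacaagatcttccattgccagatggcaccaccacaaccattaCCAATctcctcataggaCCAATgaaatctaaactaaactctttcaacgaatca
LHCB2.3: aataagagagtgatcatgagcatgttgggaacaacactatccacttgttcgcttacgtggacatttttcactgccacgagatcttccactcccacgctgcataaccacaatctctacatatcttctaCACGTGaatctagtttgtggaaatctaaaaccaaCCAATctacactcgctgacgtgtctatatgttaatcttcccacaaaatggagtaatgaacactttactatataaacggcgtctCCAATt
LHCB1.1: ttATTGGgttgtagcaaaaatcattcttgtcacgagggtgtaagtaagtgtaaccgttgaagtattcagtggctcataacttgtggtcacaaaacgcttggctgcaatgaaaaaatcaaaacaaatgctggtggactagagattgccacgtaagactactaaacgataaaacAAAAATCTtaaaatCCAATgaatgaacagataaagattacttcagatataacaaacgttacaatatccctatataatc
PSAD2: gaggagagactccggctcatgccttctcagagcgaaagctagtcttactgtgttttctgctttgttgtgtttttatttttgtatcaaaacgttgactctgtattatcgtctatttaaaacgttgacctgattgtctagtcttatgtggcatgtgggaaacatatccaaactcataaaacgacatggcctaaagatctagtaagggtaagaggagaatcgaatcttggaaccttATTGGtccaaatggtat
PSAD1: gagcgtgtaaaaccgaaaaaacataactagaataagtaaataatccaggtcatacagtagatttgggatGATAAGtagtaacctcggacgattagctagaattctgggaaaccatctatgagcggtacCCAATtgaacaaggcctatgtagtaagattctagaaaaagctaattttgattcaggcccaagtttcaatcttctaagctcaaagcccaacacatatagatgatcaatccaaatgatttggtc
LHCB2.1 and LHCB2.2 both held a CCAAT box about as far from the start, at 133 and 134 bases before it, and a second at 59 and 53 bases. LHCB2.1 also held an I-box at 221 bases that LHCB2.2 lacked in this window, and their ratios were 3.26-fold and 3.09-fold lower. LHCB2.3 held a G-box at 123 bases, and LHCB1.1 the CCA1 letters at 78 bases. PSAD1 held an I-box at 181 bases and a CCAAT box at 122 bases, whereas the single match of PSAD2 was a CCAAT box on the other strand at 17 bases.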

How the data were processed

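Total RNA was sequenced as 50-nt single-end reads without strand, per the labels' protocols. The submitters' processing notes name TopHat2 2.0.11 and TAIR10. Neither the counting tool nor the rule by which genes were selected is given in the sources used here. Per the file headers, the authors deposited an RPKM column for each genotype and a column with the ratio (ago1-27 over wild type). That ratio and the quotient of both RPKM columns differed by at most 4.17e-08 of its value. Ratios here are that quotient, and differences are on the log2(RPKM + 1) scale, which understates the change of low genes. With 1 value per genotype no test was run.

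The size of each library was inferred from low RPKM values, which move in steps of 1 read at annotated lengths, searching 8000000 to 20000000 reads. They were 10453032, 11196495 and 13887069 for wild type and 11407616, 12294210 and 12164864 for ago1-27, each making 15 to 22 genes whole against at most 12 for the next best total. None of the 14 rows equalled whole reads of 1 library per genotype, as 766 of all rows did at some transcript length; of the other genes named, these were CP12-3, LFY, ANX1 and AGP6. Intervals are exact (Clopper-Pearson) at 95% on reads estimated from the RPKM, the TAIR10.1 main transcript length and the mean library size. They cover counting error only and leave out variation between plants. Both steps were tested on simulated data that held counting error only. The simulation cannot show how the intervals behave with variation between plants. Coordinates, lengths and sequences come from RefSeq TAIR10.1, where 6772 of 6791 identifiers were found; the deposited table holds no coordinates.

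The genes and lists were chosen with earlier results of these data known. Named were every listed gene in the table, up to 4 genes per related list with the largest difference, and AGO1; PIF5 and CRD1 fell outside that rule. CGA1, GLK1 and GNC, the 3 higher regulators, and AT5G54280 and AT2G39725 were added with their values known. Other settings tried were a pseudocount of 0.1 or 0.5, no RPKM limit, a limit of 5 RPKM, a threshold of 0.6, families counted once, the median of ratios and quantile normalization. Scripts used scipy 1.17.1, pandas 2.3.3, numpy 2.4.6 and matplotlib 3.10.9 in Python 3.11.15.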

Additional observations from a re-analysis of the deposited data

How the results depend on the processing

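All 14 photosynthesis genes kept a lower value in ago1-27 after quantile normalization. The other settings could not change this count. Pseudocounts do not enter it, all 14 genes lay above the RPKM limits, and the median of ratios only lowers each ratio. The 6 genes past the threshold were also 6 under the pseudocounts and limits, and became 14 under the median of ratios, 8 under quantile normalization and 13 at a threshold of 0.6. Left out after the data were seen, the 4 genes that share windows with copies left 3 of 10 past the threshold. Leaving out the 6 that overlap a gene on the other strand left 4 of 8, with all 8 lower and a median of -1.02. Every LHCII gene of the table was in at least 1 of these groups. The median of ratios divides the ratios by 1.62, which moves the median of the table by 0.70 on the log2 scale by construction, and its premise that most genes do not differ is not met by this table. It made 3396 of the rows lower in place of 2080, and 1970 lower and 219 higher past the threshold in place of 694 and 748. Quantile normalization, which gives both genotypes the same set of values by construction, gave 1212 and 395. A pseudocount of 0.1 gave 1350 higher. The median over the 14 genes, in log2(RPKM + 1), became -1.47 under the first rescaling and -1.04 under the second. In the same order, LHCII went from -1.37 to -2.03 and -1.55, the minor antenna from -0.74 to -1.41 and -0.81, and LHCI from -0.74 to -1.44 and -0.59. Electron transport went from -0.72 to -1.42 and -1.03, and Rubisco with the activase from -0.66 to -1.35 and -0.76. The photosystem I core went from -0.80 to -1.4994 and -0.86. Genes of the related lists lower past the threshold numbered 5, and 18 under the median of ratios. No paired analysis was possible because the table gives 1 value per genotype, and for the same reason no replicate could be left out.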
